A study of Rattus norvegicus with 20 samples.

Results

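Serpins, kallikreins, cathepsins, cystatins and related secreted or membrane serine proteases were followed as a set of 102 genes out of 14217 named genes on the array. They were taken by name: every probe set annotated with a single symbol that begins with Serpin, Klk, Cts, Cst (followed by a digit or the letter a, b or c), Tmprss, Prss or Spink, with the Cstf genes left out. The set holds 33 serpins (12 of clade A, 11 of clade B and 10 of other clades), 12 kallikreins, 18 cathepsins, 9 cystatins, 2 Tmprss genes, 23 Prss genes and 5 Spink genes. It is represented by 119 probe sets. For the 13 genes with several, the brightest one by mean log2 signal stands for the gene.

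The samples were nasal epithelium taken by hand from adult Sprague-Dawley rats, an outbred stock, that had no treatment and no genetic modification. Gene expression was read on 20 rat genome arrays, 1 array per sample. Males gave 6 olfactory and 6 respiratory arrays, and females 2 olfactory and 6 respiratory arrays. By their labels these came from 13 rats aged 11 to 14 weeks, 7 of which gave both tissues (5 males and 2 females); the study's text names 9 males and 9 females. Each tissue sample is a mixture of epithelium, glands, vessels and resident immune cells, and all groups share the same untreated state. The number of arrays, above all the 2 of female olfactory epithelium, limits the precision of every value below.

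Secreted and lysosomal proteases are kept in check by dedicated inhibitors. Serpins are suicide substrates: the protease cuts a loop of the serpin, the serpin changes shape and the enzyme stays trapped. Clade A serpins are mostly secreted plasma-type proteins, whereas clade B serpins act mainly inside the cell and are typical of stratified epithelia and leukocytes. Cystatins block the cysteine cathepsins of the lysosome, and Spink proteins block trypsin-like proteases, among them the kallikreins. Tissue kallikreins and membrane-bound serine proteases process hormones, growth factors, ion channels and viral proteins at epithelial surfaces. The nose holds a respiratory epithelium of ciliated, secretory and basal cells and an olfactory epithelium of sensory neurons, supporting cells and basal cells.

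The genes with the largest differences between the tissues were clade B serpins and a tissue kallikrein. Their promoters are shown here because each sits near a close relative on its chromosome: Serpinb2 next to Serpinb10, both lower in olfactory epithelium, and Klk1b3 near Klk1, of which only Klk1b3 passed the test. Each sequence runs 5′ to 3′ from 250 bases before to 50 bases after the annotated start (RefSeq, GRCr8): Serpinb2 at chr13:24055771-24056070, Serpinb10 at chr13:24067803-24068102, Klk1b3 at chr1:103845397-103845696 and Klk1 at chr1:103778902-103779201, all on the plus strand. Capitals in Serpinb2 mark a match to TGANTCA, the AP-1 motif, which begins 189 bases before the start. Capitals in the kallikreins mark the longest run that the pair share, 36 bases.
Serpinb2: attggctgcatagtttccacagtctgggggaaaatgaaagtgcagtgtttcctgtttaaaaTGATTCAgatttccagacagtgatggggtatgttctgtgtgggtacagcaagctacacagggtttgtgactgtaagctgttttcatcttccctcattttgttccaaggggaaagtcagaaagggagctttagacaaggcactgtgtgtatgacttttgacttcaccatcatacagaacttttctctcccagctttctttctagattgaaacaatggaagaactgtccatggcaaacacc
Serpinb10: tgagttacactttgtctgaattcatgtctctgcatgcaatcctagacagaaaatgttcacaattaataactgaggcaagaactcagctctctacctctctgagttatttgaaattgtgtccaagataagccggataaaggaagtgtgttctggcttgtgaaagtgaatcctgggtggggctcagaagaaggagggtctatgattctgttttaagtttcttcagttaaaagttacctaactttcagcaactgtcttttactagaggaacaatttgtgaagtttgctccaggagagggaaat
Klk1b3: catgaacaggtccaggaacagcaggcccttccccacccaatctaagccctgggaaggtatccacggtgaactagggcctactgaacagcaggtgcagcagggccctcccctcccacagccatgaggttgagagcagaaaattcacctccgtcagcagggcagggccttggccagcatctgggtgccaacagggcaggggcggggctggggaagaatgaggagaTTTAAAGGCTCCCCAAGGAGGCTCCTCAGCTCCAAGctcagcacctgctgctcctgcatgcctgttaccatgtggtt
Klk1: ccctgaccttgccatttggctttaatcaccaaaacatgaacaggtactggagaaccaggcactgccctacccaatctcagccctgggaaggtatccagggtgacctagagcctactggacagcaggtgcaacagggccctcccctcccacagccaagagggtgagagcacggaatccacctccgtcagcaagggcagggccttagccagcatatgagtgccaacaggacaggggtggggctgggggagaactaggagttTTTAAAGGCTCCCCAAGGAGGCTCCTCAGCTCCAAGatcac
The promoters of Klk1b3 and Klk1 were identical at 233 of 263 aligned bases (88.6%, with 2 gap positions), so these paralogs are close copies. RefSeq promoters were found for 79 of the 102 genes, some with several starts. TGANTCA, searched on both strands, occurred in 4 of the 22 promoters of 22 genes that were lower in male olfactory epithelium (18.2%), in 0 of the 13 promoters of 7 genes that were higher, in 3 of the 54 promoters of 50 genes that did not pass (5.56%), and in 7.33% of all 33469 promoters in the table. TATAAA occurred in 6 of the 22 (27.3%), 0 of the 13, 5 of the 54 (9.26%) and 14.2% of all. The EBF motif occurred in 1 of the 22, 0 of the 13, 1 of the 54 and 0.834% of all. Each motif was searched on its own, and these are counts of letters in a short window.

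Some facts about all the arrays bear on the results. The tissue labels held: 9 of 9 measured olfactory neuron markers were higher in male olfactory arrays, with a summed signal of 77681 to 96380 against 4368 to 20408 in male respiratory arrays, and 93289 and 100400 in female olfactory against 5341 to 31280 in female respiratory arrays. RNA integrity numbers moved with tissue: 8.54 ± 0.26 (SD, n = 5) in male olfactory and 9.20 ± 0.08 (n = 4) in male respiratory samples, 8.30 in both female olfactory samples and 8.98 ± 0.26 (n = 6) in female respiratory samples. The part of RNA integrity in the results below was tested only by a covariate. For males its values are given where it ended a call, and for females they are given together after the families. Male respiratory array 7 and female respiratory array 8 stood apart from the other respiratory arrays on the second principal component, and leaving both out kept all 37 male and all 22 female calls described below. Background was set on each array from 27 bacterial control probe sets and lay at a signal of 28.2 to 64.9. Of the 102 genes, 36 were above it on all 20 arrays, 45 on fewer than 10 and 9 on none.

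The main comparison asked how olfactory differs from respiratory epithelium in untreated rats. In males 37 of the 102 genes passed an adjusted p of 0.05 in limma (36.3%), against 31.8% of all named genes. Only 8 were higher in olfactory epithelium (7.84%, against 14.0% of all named genes) and 29 were lower (28.4%, against 17.8%). The median change of the 102 genes was -0.21 on the log2 scale, against -0.05 for all named genes. Male olfactory and male respiratory arrays did not overlap for 3 of the 102 genes upwards (2.94%, against 7.54% of all named genes) and 19 downwards (18.6%, against 10.2%), all of them called. At an unadjusted p under 0.05 there were 41, against 10942 of all 31042 probe sets. In the 7 rats with both tissues, 26 of the 102 genes were lower in the olfactory sample of every rat (25.5%, against 14.4% of all named genes) and 4 were higher in every rat (3.92%, against 13.8%). These arrays also entered the test. Because these are bulk samples, fewer cells of a type and less RNA per cell cannot be told apart. With RNA integrity as a covariate 15 of the 102 passed in males (2 higher, 13 lower), among them 14 of the 37, and all 37 kept their direction. On the same arrays without the covariate 33 of the 37 passed.

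**Figure D1:**
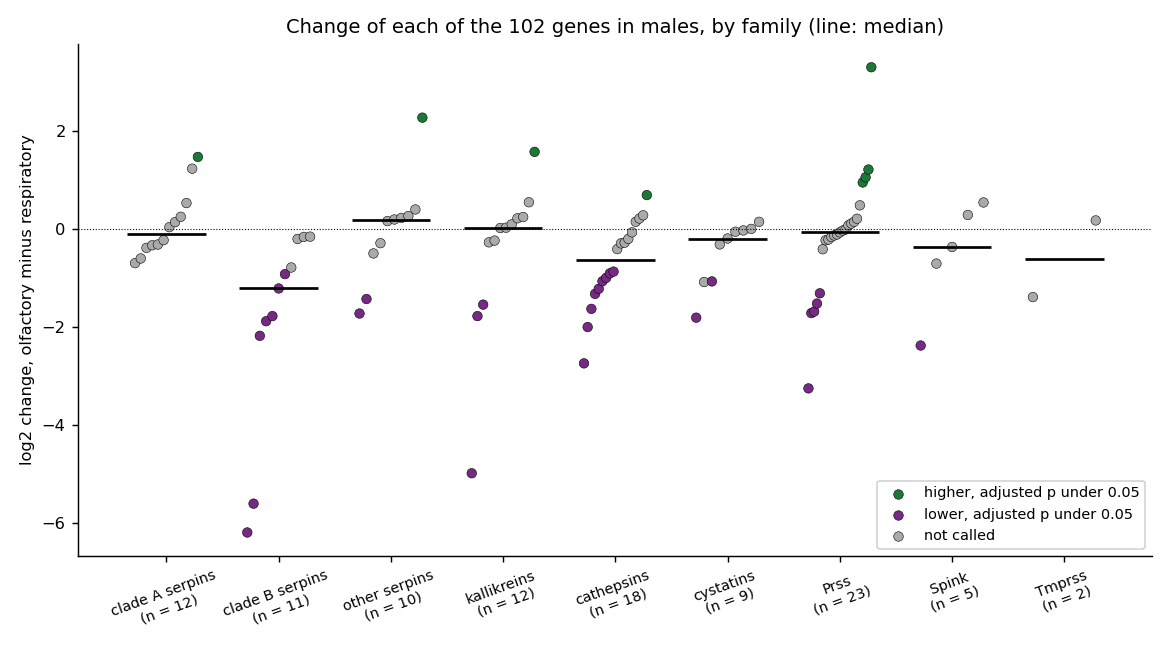
Log2 change (olfactory minus respiratory, y axis) of each of the 102 genes in males, grouped by family with the number of genes in each, where the line is the family's median and colour marks the call. Clade B serpins have the lowest median, -1.22, and Serpinb2, Serpinb10 and Klk1b3 lie below -4.

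Clade B serpins were the family with most of its members lower. Of 11 genes 7 fell in male olfactory epithelium (63.6%, against 17.8% of all named genes), none rose, and the median change was -1.22. Serpinb2, the inhibitor of the plasminogen activator urokinase, was at or under background on all 6 male olfactory arrays, with signals of 1.38, 1.94 and 12.6 (lowest, median, highest) against 487, 1607 and 2576 on male respiratory arrays. It was therefore at least 24.0-fold lower (limma adjusted p 2.9e-07). In females its signals were 6.92 and 217 in olfactory against 259, 1422 and 9185 in respiratory epithelium, so female olfactory rat 8 was far above the other olfactory arrays and close to the lowest respiratory array (change -4.24, SE 0.94, adjusted p 0.0030). Without female olfactory 6 the female change was -2.56 (adjusted p 0.21).

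Serpinb10, known as bomapin in human blood-forming cells, had signals of 13.8, 35.3 and 76.9 in male olfactory against 1472, 2357 and 5362 in male respiratory arrays, a change of -5.60 (SE 0.56, adjusted p 1.2e-07). Female olfactory arrays had 18.0 and 274 against 796, 1925 and 15786 in female respiratory arrays (change -4.45, SE 0.79, adjusted p 0.00044), and without female olfactory 6 the change was -2.90 (adjusted p 0.0716). The tissues were separated in both sexes, and the within-rat differences ran from -7.50 to -4.35. Serpinb1a, an inhibitor of neutrophil elastase, had 1880, 2760 and 7883 in male olfactory against 10140, 11196 and 14741 in male respiratory arrays, also without overlap (change -1.88, SE 0.33, adjusted p 0.00013), and its other probe set gave -1.92. Serpinb6b had 90.7, 105 and 182 in male olfactory against 482, 629 and 769 in male respiratory arrays (change -2.18, SE 0.30, adjusted p 6.1e-06). In females the change of Serpinb6b was -2.83 (SE 0.42, adjusted p 6.5e-05), the call of this family that held there under every alternative.

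The other 3 called clade B serpins overlapped between the tissues. Serpinb7, a keratinocyte serpin whose loss causes a human palm and sole keratosis, had a change of -1.78 (SE 0.52, adjusted p 0.0128), and its other probe set did not pass (-0.88, adjusted p 0.162). Within rats aged 11 weeks Serpinb7 did not pass (adjusted p 0.0605), and with the animal as a fixed replicate block it passed in females (-2.36, adjusted p 0.0427, against 0.169 without the block). Serpinb3, an inhibitor of cysteine proteases in human squamous epithelium, changed by -1.22 (SE 0.31, adjusted p 0.0057). Serpinb9, the granzyme B inhibitor, changed by -0.92 (SE 0.25, adjusted p 0.0075), with its other probe set at -0.45 (adjusted p 0.165). With the RNA integrity covariate neither Serpinb3 (-0.93, SE 0.62, adjusted p 0.441) nor Serpinb9 (-1.39, SE 0.46, adjusted p 0.0776) passed. Serpinb11, Serpinb6a, Serpinb9b and Serpinb12 did not pass, at -0.79, -0.21, -0.17 and -0.16.

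One of the respiratory arrays that stood apart was high across this family. On female respiratory 8, 10 of the 11 clade B serpins were above all 5 other female respiratory arrays and none was below them, while 26.5% of all named genes were above on that array and 39.6% below. On male respiratory 7, 5 of the 11 were above and none below, against 37.8% and 30.1% of all named genes, and Serpinb2 lay within the range of the others. Serpinb10 reached 15786 on female respiratory 8 and 5362 on male respiratory 7. The summed signal of 5 measured neutrophil markers was 41531 and 13926 on the same arrays, the highest of their groups. Sums of gland, basal cell, macrophage, lymphocyte and erythrocyte markers were also the highest of their groups on both arrays. The goblet cell sum was highest on male respiratory 7 only and the endothelial sum on female respiratory 8 only. Squamous, ciliated, mast cell and fibroblast sums were highest on neither. The part of neutrophils or of any other cell type in these levels was not tested.

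**Figure D2:**
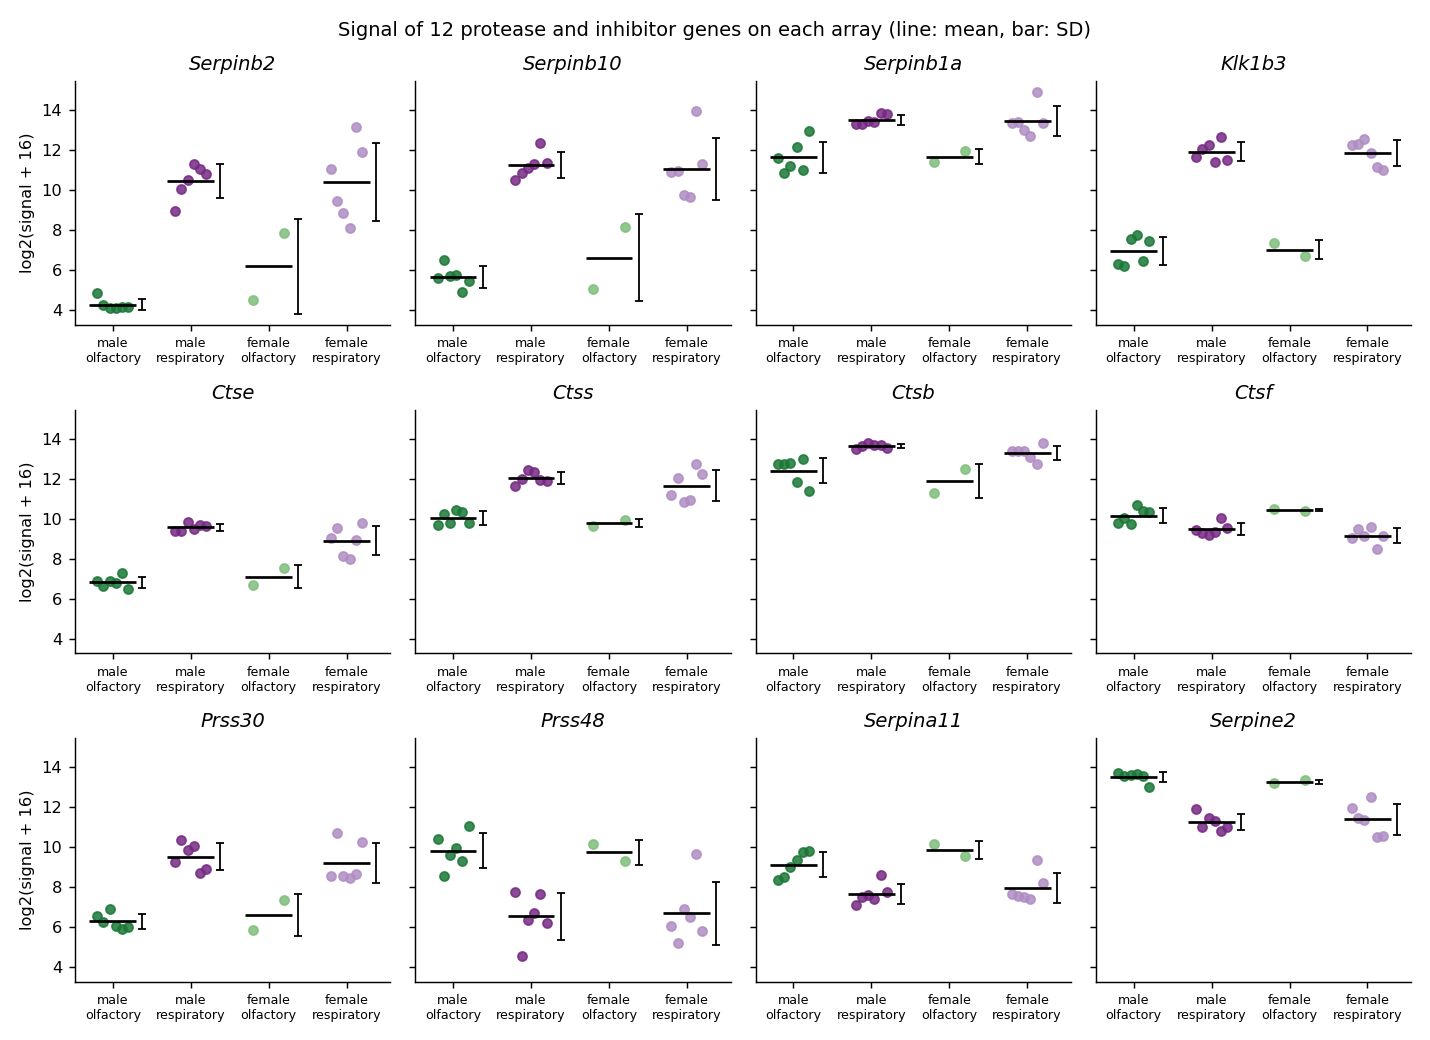
Signal of 12 genes on each of the 20 arrays (y axis, log2 of signal plus 16), by sex and tissue, with the group mean as a line and the SD as a bar. Serpinb2, Serpinb10 and Klk1b3 show the widest gaps between male olfactory and male respiratory arrays, Serpine2 and Prss48 lie higher in olfactory arrays, and female olfactory epithelium has 2 points per panel.

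Of 12 clade A serpins, mostly secreted, 1 rose in males (8.33%), none fell and 11 did not pass. Of all named genes 14.0% rose and 17.8% fell. Serpina11, a serpin of unsettled function, had signals of 308, 572 and 887 in male olfactory against 124, 172 and 371 in male respiratory arrays, with overlap (change 1.46, SE 0.33, adjusted p 0.0019), and 730 and 1140 in female olfactory against 152, 180 and 646 in female respiratory arrays (1.90, SE 0.47, adjusted p 0.0066). The olfactory sample was higher in all 7 rats. Its call ended with the RNA integrity covariate in males (0.76, adjusted p 0.503) and with the fixed replicate block in females (adjusted p 0.114). Serpina3n, an acute-phase serpin that inhibits granzyme B in the mouse, was spread widely within each group and did not pass (1.22, SE 0.68, adjusted p 0.21).

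Serpina1, alpha-1-antitrypsin, the main inhibitor of neutrophil elastase, was called only in females. Male olfactory arrays 1, 2, 3, 4, 7 and 10 had signals of 820, 995, 6466, 1078, 13018 and 1088, against 928, 1384 and 2799 (lowest, median, highest) in male respiratory arrays. Males 3 and 7 were thus far above the other 4 olfactory samples, and the male change was 0.52 (SE 0.55, adjusted p 0.548). The 2 female olfactory arrays had 2625 and 10413, against 541, 942 and 1795 in female respiratory arrays, without overlap (2.36, SE 0.77, adjusted p 0.0374). That call ended without female olfactory 8 (1.36, adjusted p 0.429) and without female respiratory 3, 4 or 6 (adjusted p 0.0569, 0.055 and 0.066). The difference between the sexes in the tissue change of Serpina1 was 1.83 (SE 0.95) and did not pass (smallest adjusted p of any of the 102 genes 0.924).

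Among serpins of other clades Serpine2 rose, Serping1 and Serpini1 fell, and 7 did not pass. These shares, 10% higher and 20% lower, are near the 14.0% and 17.8% of all named genes. Serpine2, protease nexin 1, inhibits thrombin and urokinase and is made by glia and many other cells. Its signals were 8224, 12388 and 13357 in male olfactory against 1775, 2310 and 3785 in male respiratory arrays, a complete separation (change 2.26, SE 0.27, adjusted p 1.4e-06). Female olfactory arrays had 9467 and 10408 against 1437, 2702 and 5886 in female respiratory arrays (1.88, SE 0.39, adjusted p 0.0016). It was the higher gene that kept its male call under every alternative, and within rats the difference ran from 1.81 to 2.84.

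Serping1, the C1 inhibitor that controls complement and plasma kallikrein, had 611, 816 and 1732 in male olfactory against 1484, 3130 and 4914 in male respiratory arrays, with overlap (change -1.73, SE 0.29, adjusted p 9.6e-05). In females the change was -2.04 (SE 0.41, adjusted p 0.0014) without overlap. Serpini1, neuroserpin, an inhibitor of tissue plasminogen activator known from neurons, was lower in olfactory arrays, with 311, 902 and 1070 in males against 1770, 2085 and 2688 in male respiratory arrays (change -1.43, SE 0.24, adjusted p 9.1e-05). Its other probe set, also above background on all 20 arrays, did not pass (-0.40, adjusted p 0.208), and the RNA integrity covariate ended the call (adjusted p 0.169). Serpinh1, the collagen chaperone, and Serpinf1, pigment epithelium-derived factor, did not pass (0.19 and -0.50, adjusted p 0.605 and 0.0678).

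Kallikreins were mostly dim, with 8 of 12 genes above background on fewer than 10 arrays. Klk1b3 was the exception. RefSeq gives Klk1 and rGK-1 among its older names, and it encodes the rat tissue kallikrein that releases kinins from kininogen. Its signals were 58.0, 117 and 204 in male olfactory against 2754, 3789 and 6530 in male respiratory arrays, a change of -4.98 (SE 0.32, adjusted p 3.9e-10). The 2 female olfactory arrays had 87.3 and 151 against 2057, 4330 and 5985 in female respiratory arrays (change -4.82, SE 0.45, adjusted p 8.0e-07). The tissues were far apart in both sexes and in each of the 7 rats, where the difference ran from -6.22 to -3.65, and the call held under every alternative in both sexes.

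The probe set annotated as Klk1, whose promoter is shown above beside that of Klk1b3, had 48.3, 75.5 and 105 in male olfactory against 35.9, 74.8 and 143 in male respiratory arrays and did not pass (0.02, SE 0.30, adjusted p 0.971). The 6 Klk1c paralogs did not pass either (-0.28 to 0.24). Probe sets of such close copies may read each other's RNA, which was not tested, so values of single Klk1-type genes are uncertain. Klk8, neuropsin, a protease of skin and brain, fell by 1.78 in males (SE 0.43, adjusted p 0.0033) with overlap, and changed by -2.13 in females (SE 0.61, adjusted p 0.017), or -1.08 without female olfactory 6 (adjusted p 0.457). Under the RNA integrity covariate the male Klk8 change was -1.85 (SE 0.79, adjusted p 0.184). Klk10 was at or under background on all 6 male olfactory arrays and above it on 5 of 6 male respiratory arrays. This makes it at least 1.45-fold lower (adjusted p 0.015). It did not pass with the fixed replicate block (adjusted p 0.0508) or within 11 weeks (0.183). Nor did it pass with the covariate (0.768) or on the same arrays without the covariate (0.0556).

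Klkb1, plasma kallikrein, the liver enzyme of the contact system, was the kallikrein that rose in males (1.57, SE 0.50, adjusted p 0.0231). It was above background on only 3 of 6 male olfactory arrays and 1 of 6 male respiratory arrays. The fixed replicate block (adjusted p 0.0581), the restriction to 11 weeks (0.221) and the RNA integrity covariate (0.100) each ended its call, as did leaving out male olfactory 2 or male respiratory 3, 4 or 8 (0.0579 to 0.0638).

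**Figure D3:**
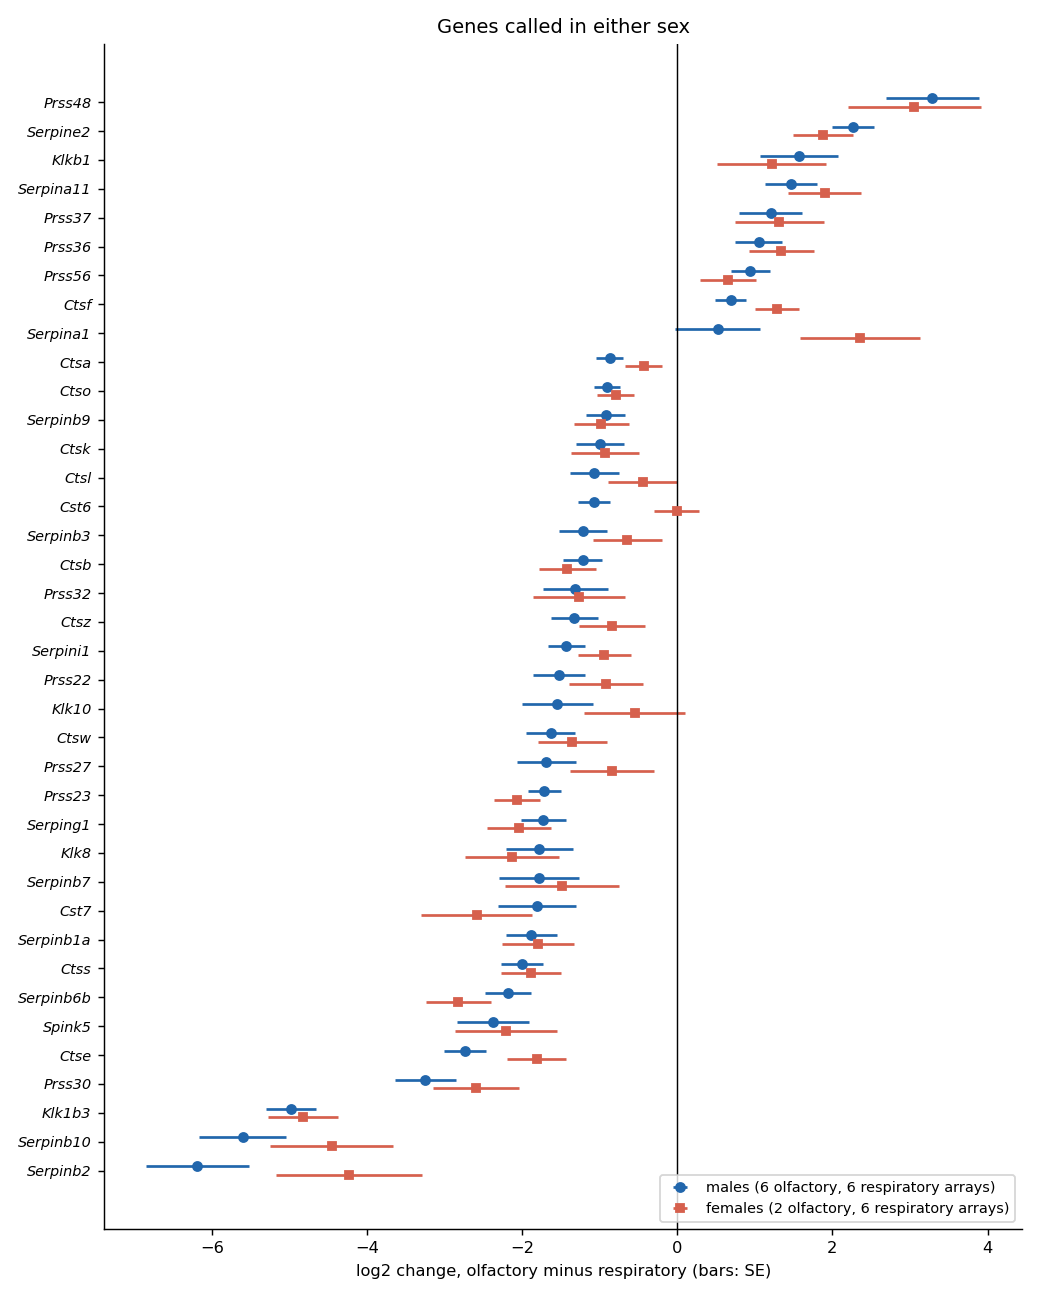
Log2 change (olfactory minus respiratory, x axis) with its SE for the 38 genes called in males or females, males as circles and females as squares. All 37 genes called in males lie on the same side of 0 in females, Cst6 at -0.01, and the values of Serpinb2, Klk10 and Prss37 in males include a group at background on every array.

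Cathepsins, the proteases of lysosomes and endosomes, held 9 of 18 genes lower and 1 higher in male olfactory epithelium (median -0.64). These are 50% and 5.56%, against 17.8% and 14.0% of all named genes. Ctse, an aspartic protease of endosomes in epithelia and antigen-presenting cells, had 74.0, 99.2 and 141 in male olfactory against 645, 743 and 911 in male respiratory arrays (change -2.74, SE 0.27, adjusted p 9.3e-08). In females it had 86.9 and 167 against 236, 500 and 877 (change -1.81, SE 0.38, adjusted p 0.0020). The tissues did not overlap in either sex. Ctss, which trims the invariant chain of MHC class II molecules in antigen-presenting cells, had 803, 1042 and 1379 in male olfactory against 3214, 4032 and 5489 in male respiratory arrays (change -2.002, SE 0.27, adjusted p 5.5e-06). In females it had 779 and 955 against 1816, 3270 and 6816 (change -1.89, SE 0.38, adjusted p 0.0014), again without overlap.

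The general lysosomal proteases had smaller changes than Ctse. Ctsb had 2665, 6783 and 8102 in male olfactory against 11553, 12987 and 14141 in male respiratory arrays, without overlap (change -1.22, SE 0.26, adjusted p 0.00089). It had 2473 and 5699 in female olfactory against 6740, 10614 and 14228 in female respiratory arrays (change -1.41, SE 0.36, adjusted p 0.0085). Its female call ended with the fixed replicate block (adjusted p 0.136) and without female olfactory 6 (-0.82, adjusted p 0.329), and its male call with the RNA integrity covariate (-0.77, adjusted p 0.398). Ctsl changed by -1.07 (adjusted p 0.014), Ctsz, a carboxypeptidase, by -1.33 (0.0020), Ctso by -0.91 (0.00023), Ctsa, the protective protein of lysosomal glycosidases, by -0.87 (0.00040), and Ctsw, known from cytotoxic lymphocytes, by -1.63 (0.00037). With the covariate each of these 5 lost its call in males (adjusted p 0.0517 to 0.356), with changes of -1.74 for Ctsl, -1.73 for Ctsz, -0.90 for Ctso, -0.52 for Ctsa and -1.44 for Ctsw, and in females the fixed replicate block ended those of Ctso (0.314) and Ctsw (0.0658). Ctsw also did not pass within 11 weeks (0.100), nor Ctsl in males on the same arrays without the covariate (0.052). Ctsk, the collagen-cleaving cathepsin of bone, changed by -0.999 (SE 0.31, adjusted p 0.0195), and did not pass without male olfactory 2 (adjusted p 0.0553).

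Ctsf was the cathepsin that rose. It had 827, 1153 and 1639 in male olfactory against 578, 654 and 1047 in male respiratory arrays (0.69, SE 0.20, adjusted p 0.0137). Female olfactory arrays had 1342 and 1399 against 349, 550 and 744 in female respiratory arrays, without overlap (1.29, SE 0.28, adjusted p 0.0029), and the olfactory sample was higher in all 7 rats. With the RNA integrity covariate the male call ended (0.65, SE 0.34, adjusted p 0.296). Of the other well-measured cathepsins, Ctsd, the main aspartic protease of lysosomes, Ctsh and Ctsc, which activates granule proteases of leukocytes, did not pass (-0.41, -0.21 and -0.30, adjusted p 0.239, 0.282 and 0.253). The other probe set of Ctsc, also above background on all 20 arrays, ran the other way, with 0.47 in males (adjusted p 0.0623) and 0.79 in females, which passed (adjusted p 0.0356). The 5 cathepsins Ctsj, Ctsm, Ctsq, Ctsql2 and Ctsr, relatives known from rodent placenta, were at background on nearly all arrays and did not pass.

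Among the cystatins, a family that holds inhibitors of cysteine cathepsins, 2 of 9 fell (22.2%, near the 17.8% of all named genes) and none rose. Cst7, cystatin F of leukocytes, had 36.5, 102 and 158 in male olfactory against 183, 342 and 617 in male respiratory arrays, without overlap (change -1.81, SE 0.51, adjusted p 0.0100). It was at background on both female olfactory arrays, at least 4.57-fold lower than in female respiratory arrays (adjusted p 0.0142). This female call did not hold in a fit of the 2 female groups alone (limma adjusted p 0.0683). The female change was -2.27 without female olfactory 6 and -2.91 without female olfactory 8, against -2.59 with both. The RNA integrity covariate ended the male call (-2.55, SE 0.96, adjusted p 0.125). Cst6, cystatin E/M of skin and glands, had 714, 1270 and 1812 in male olfactory against 2161, 2386 and 3593 in male respiratory arrays (change -1.07, SE 0.20, adjusted p 0.00034). In females Cst6 did not pass (-0.01, SE 0.29, adjusted p 0.99), and the difference between the sexes, 1.07 (SE 0.35), had an unadjusted p of 0.0063 and did not pass (adjusted p 0.924). Cst3, the secreted cystatin C of most body fluids, had 11089, 16868 and 25817 in male olfactory against 12000, 13500 and 27414 in male respiratory arrays and did not pass (0.14, SE 0.29, adjusted p 0.785). Cstb, the cystatin inside cells, missed the threshold (-1.08, SE 0.41, adjusted p 0.0577).

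Of 23 Prss genes 5 fell (21.7%) and 4 rose (17.4%) in male olfactory epithelium, shares near those of all named genes (17.8% and 14.0%), and 13 were above background on fewer than 10 arrays. Prss30, a serine protease of epithelial membranes, had 43.7, 56.1 and 104 in male olfactory against 409, 766 and 1293 in male respiratory arrays (change -3.25, SE 0.39, adjusted p 1.4e-06), and its other 2 probe sets gave -4.10 and -3.59. In females it had 42.3 and 148 against 342, 374 and 1664 (change -2.59, SE 0.56, adjusted p 0.0023). With the RNA integrity covariate the male value was -2.15 (SE 0.65, adjusted p 0.0504). Prss23, a secreted protease, had 738, 913 and 1587 in male olfactory against 2292, 3471 and 3807 in male respiratory arrays (change -1.72, SE 0.21, adjusted p 1.9e-06), and -2.07 in females (SE 0.30, adjusted p 5.6e-05). Both sets of Prss23 values were separated, and its calls held under every alternative in both sexes.

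Prss27 and Prss22, serine proteases of the tryptase group known from airway and other mucosae, changed by -1.69 (SE 0.38, adjusted p 0.0019) and -1.52 (SE 0.34, adjusted p 0.0015) in males. Prss30, Prss22 and Prss27 are neighbours within the set on their chromosome in RefSeq, and 3 of 3 were lower. The covariate ended the call of Prss27 (-1.67, SE 0.66, adjusted p 0.146), as did the restriction to 11 weeks (0.0745). Prss32 changed by -1.31 (adjusted p 0.0227) and did not pass with the fixed replicate block (adjusted p 0.0939), within 11 weeks (0.0939), on the arrays with an RNA integrity number (0.078), nor without male olfactory 1 or 10 or male respiratory 2 (0.0516 to 0.0617). Under the RNA integrity covariate the change of Prss32 was -0.0096 (SE 0.73, adjusted p 0.997). Prss8, prostasin, which activates the epithelial sodium channel, had 526, 1221 and 1662 in male olfactory against 873, 1210 and 1430 in male respiratory arrays and did not pass (-0.14, SE 0.25, adjusted p 0.759).

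Prss48 had the largest positive change of the set. Its signals were 364, 876 and 2147 in male olfactory against 7.54, 76.8 and 198 in male respiratory arrays, without overlap (3.29, SE 0.61, adjusted p 0.00024). The 2 female olfactory arrays had 618 and 1144 against 20.7, 62.4 and 786 in female respiratory arrays, where array 8 held the 786 and overlapped the olfactory range (3.06, SE 0.86, adjusted p 0.0152). In rat female 8 the olfactory sample was the lower one, by 0.34. The female value with the fixed replicate block was 1.46 (SE 0.71, adjusted p 0.251), and it did not pass without female olfactory 6 (2.62, adjusted p 0.201) or 8 (3.49, adjusted p 0.0595). With the RNA integrity covariate the male change was 1.90 (SE 0.97, adjusted p 0.285). The gene identifier given for this probe set was not matched in RefSeq, so the symbol stands as annotated.

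Prss56, a protease of the eye in human and mouse, had 141, 219 and 305 in male olfactory against 73.1, 103 and 138 in male respiratory arrays, without overlap (0.94, SE 0.25, adjusted p 0.0077), and was higher in all 7 rats. Prss36 had 123, 211 and 268 in male olfactory against 45.8, 94.5 and 141 in male respiratory arrays (1.05, SE 0.30, adjusted p 0.011), and 171 and 235 against 32.6, 67.1 and 167 in females (1.34, SE 0.42, adjusted p 0.0293). With the fixed replicate block Prss36 passed in neither sex (adjusted p 0.115 in males, 0.453 in females). Prss37, a gene of the testis, was at background on all male respiratory arrays and above it on 3 of 6 male olfactory arrays, so no fold is given (adjusted p 0.031, 0.075 with the fixed replicate block). Its other 2 probe sets did not pass (-0.42 and 0.14), and the call ended without any of 6 single arrays (male olfactory 4 or 10, male respiratory 1, 2, 3 or 4). Within 11 weeks Prss56 had an adjusted p of 0.104, and with the RNA integrity covariate none of Prss56, Prss36 and Prss37 passed (0.487, 0.502 and 0.678). Prss37 did not pass on the same arrays without the covariate either (0.0611).

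Spink5 was the Spink gene that changed. It encodes LEKTI, the inhibitor of skin kallikreins whose loss causes Netherton syndrome in humans. Its signals were 32.1, 46.6 and 62.5 in male olfactory against 148, 296 and 809 in male respiratory arrays (change -2.38, SE 0.47, adjusted p 0.00045). Female olfactory arrays had 37.5 and 240, the higher of them inside the female respiratory range of 184, 471 and 1462 (change -2.21, SE 0.66, adjusted p 0.0221). Without female olfactory 6 that change was -1.08 (adjusted p 0.502), and it did not pass in a fit of the 2 female groups alone (adjusted p 0.0744). The other 2 probe sets gave -1.808 and -2.9997 in males, and the RNA integrity covariate gave -2.96 (SE 0.90, adjusted p 0.0511). Of the membrane proteases Tmprss2, which cuts the entry proteins of airway viruses, had 1321, 2629 and 3579 in male olfactory against 1879, 2091 and 3027 in male respiratory arrays and did not pass (0.17, SE 0.26, adjusted p 0.697). Tmprss11d, the airway trypsin-like protease, did not pass either (-1.39, SE 0.56, adjusted p 0.0734).

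**Figure D4:**
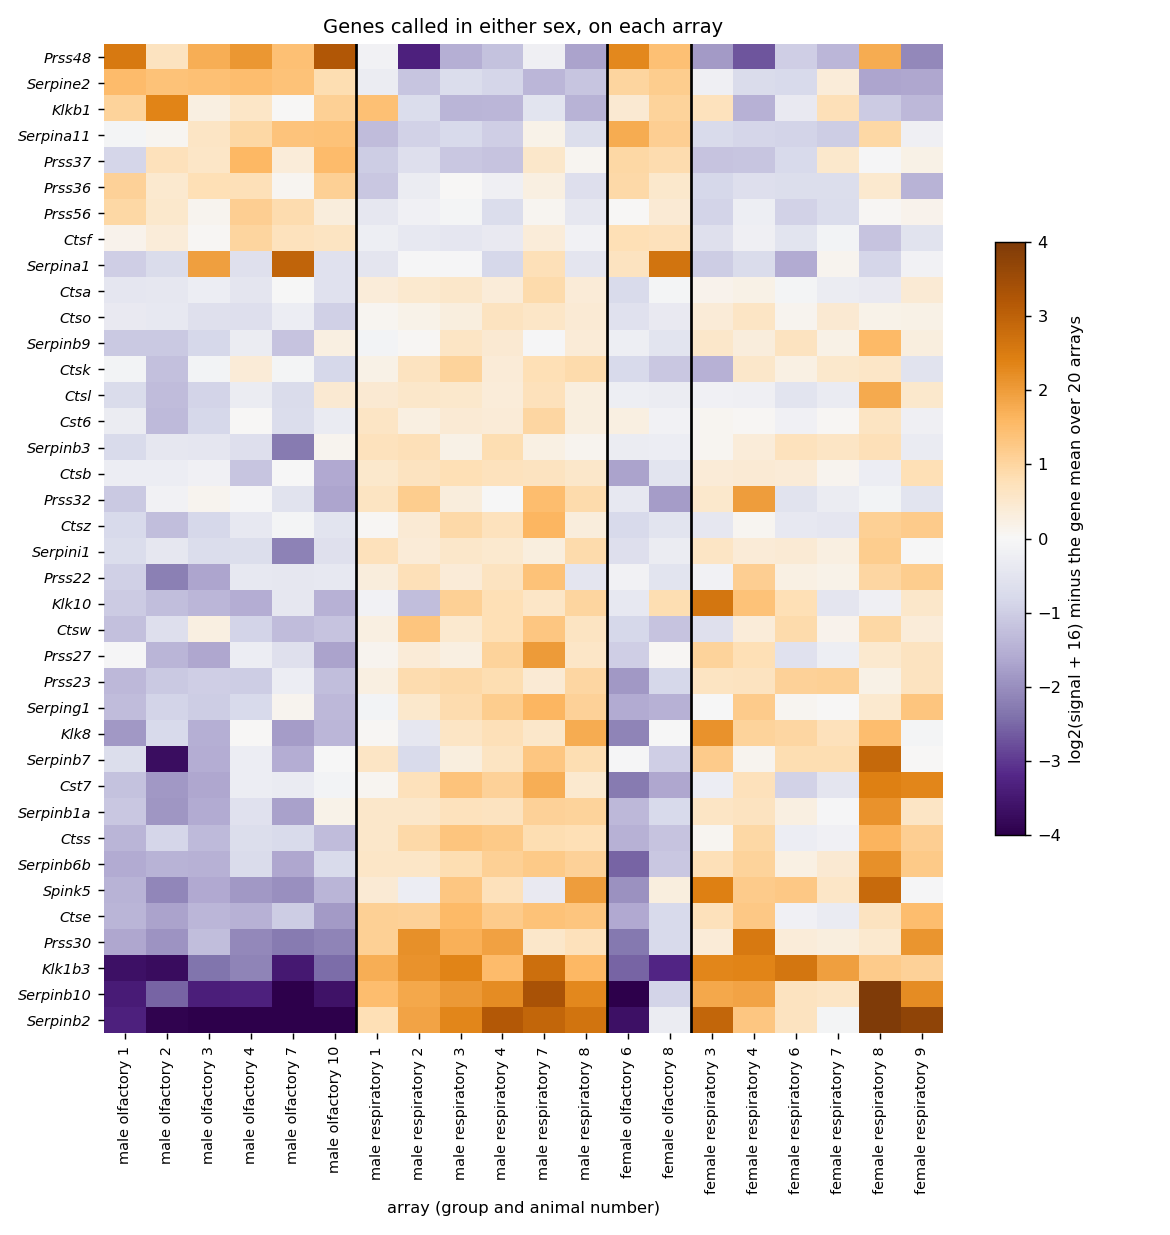
Signal of the 38 genes called in males or females on each array (columns, by group and rat; colour, log2 of signal plus 16 minus the gene's mean over 20 arrays; rows ordered by male change). Serpina1 is high in male olfactory 3 and 7 and female olfactory 8, and several lower genes, Serpinb10 and Serpinb2 among them, are at their highest on female respiratory 8.

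In females 22 of the 102 genes passed (21.6%), against 22.5% of all named genes, 6 of them higher (background 10.9%) and 16 lower (11.6%). Of the 22, 21 were also called in males in the same direction, which is 56.8% of the male and 95.5% of the female calls, and the remaining one was Serpina1. All 37 genes called in males had the same sign in females. The female calls rested on 2 olfactory arrays, and a fit without either of them rests on the other alone. Changes then moved in both directions. Without female olfactory 6 that of Serpinb2 was -2.56, against -4.24 with both. In the same fit Ctse changed by -1.40, against -1.81, and Prss30 by -1.85, against -2.59. Serpina11 changed by 1.59, against 1.90, Prss36 by 1.13, against 1.34, and Ctsw by -1.53, against -1.35. Without female olfactory 8 that of Serpina1 was 1.36, against 2.36, and that of Prss48 was 3.49, against 3.06. With the RNA integrity covariate 3 passed, Klk1b3, Prss23 and Serpinb6b, and the other 19 lost their calls (adjusted p 0.0581 to 0.685), among them Serpinb10 (-4.30, 0.0581), Serping1 (-1.98, 0.0598), Serpine2 (1.92, 0.0713), Ctss (-1.83, 0.0874), Ctse (-1.27, 0.255) and Serpina1 (1.68, 0.498).

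None of the 102 genes passed between females and males. In respiratory epithelium 0 passed in limma (smallest adjusted p 0.9999), where 0.0258% of all probe sets did. An unadjusted p under 0.05 was reached by 6 of the 102 genes, against 1160 of all 31042 probe sets. The 6 were, as female minus male, Ctsa (-0.50), Ctse (-0.66), Spink1l (-0.62), Ctsk (-0.69), Serpind1 (-0.73) and Klk1c9 (0.45). In olfactory epithelium 0 passed (smallest adjusted p 0.939, against 0.0419% of all probe sets). There 6 of the 102 genes had an unadjusted p under 0.05, against 1583 of all 31042 probe sets. By value Prss45 (1.32), Klk10 (1.42), Prss2 (0.76), Klk1c2 (0.73) and Cst6 (0.64) were higher and Serpina10 (-1.17) lower in females. Klk1c9 and Klk1c2 were at or under background on all 20 arrays. Prss2 and Spink1l were above it on 1 array each, Prss45 on 3, Serpind1 on 6 and Serpina10 on 9. Klk10 was at or under background on all 6 male olfactory arrays. The tissue change itself differed between the sexes for 0 of the 102 and 0 of all probe sets. Cst6, Serpind1 and Ctsd had an unadjusted p under 0.05 (1.07, 1.35 and 0.89), against 1516 of all 31042 probe sets. For Klk1b3 the female minus male difference was -0.08 (SE 0.32) in respiratory and 0.07 (SE 0.45) in olfactory epithelium.

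The chosen genes act with partners outside the set. The counts of each partner list below stand against 17.8% of all named genes lower and 14.0% higher in male olfactory epithelium. Of 13 measured genes of the plasminogen and thrombin system, 5 fell in male olfactory epithelium and none rose. This list holds proteases that Serpinb2 or Serpine2 inhibit, and also receptors and cofactors. Plau, urokinase itself, had 43.5, 64.5 and 105 in male olfactory against 542, 866 and 1335 in male respiratory arrays (change -3.40, SE 0.34, adjusted p 1.0e-07). Plaur, its receptor, changed by -2.67 (SE 0.60, adjusted p 0.0018), and F3, tissue factor, which starts clotting, by -2.36 (SE 0.15, adjusted p 3.6e-10). Procr and Plat also fell. Urokinase, its receptor and its inhibitor Serpinb2 were thus all lower, while Serpine2 was higher.

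Of 8 measured kallikrein-kinin genes only Mme, neprilysin, which degrades kinins, fell (-1.36, SE 0.30, adjusted p 0.0014), and the kinin receptor genes Bdkrb1 and Bdkrb2 did not pass (0.11 and 0.12). Of 14 partners of membrane proteases 2 fell, Met (-1.52, SE 0.32), the receptor of hepatocyte growth factor, and Spint1 (-1.31, SE 0.19), the inhibitor of its activating proteases, and none rose. Of 23 lysosomal genes 9 fell and 1, Smpd1 (0.56), rose. Man2b1 (-1.69, SE 0.25), Scarb2 (-1.08) and Gusb (-0.99), an enzyme, a membrane protein and an enzyme of lysosomes, changed most. The median of this list was -0.47, against -0.64 for the cathepsins.

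Of 23 inhibitors from other families 9 fell and 4 rose. Stfa3, a stefin that inhibits cathepsins, was at background on all male olfactory arrays (1.55, 8.24 and 17.3) against 138, 902 and 1942 in male respiratory arrays (adjusted p 3.7e-05). Slpi, the secreted inhibitor of leukocyte elastase in airway fluid, had 64.3, 270 and 958 in male olfactory against 4071, 6639 and 24662 in male respiratory arrays (change -4.66, SE 0.77, adjusted p 6.9e-05). Wfdc3 rose (2.67, SE 0.57, adjusted p 0.0010). Of 18 other serine proteases 6 fell, with the complement protease C1s at -1.25 (SE 0.26), and 2 rose, Fap (1.84, SE 0.23), a fibroblast protease, and Cfd (1.49, SE 0.31), complement factor D.

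Markers of other cells also differed between the tissues, beside 17.8% of all named genes lower and 14.0% higher in male olfactory epithelium. In males 8 of 8 macrophage markers were lower in olfactory arrays, with a summed signal of 1982 to 4972 against 8220 to 18674, 4 of 5 basal cell markers were lower (3018 to 10864 against 20153 to 66271), and 5 of 9 squamous cell markers were lower (1456 to 2809 against 3631 to 20096). Of 5 neutrophil markers 2 were lower (642 to 1592 against 2751 to 13926), of 11 lymphocyte markers 4 (700 to 1765 against 1300 to 4112), of 11 gland markers 7 lower and 1 higher, of 7 fibroblast markers 5 lower and 1 higher, and of 8 mast cell markers 1 lower and 3 higher. The squamous marker Krt13, the neutrophil marker Cxcr2, the macrophage marker Cd163, the lymphocyte marker Cd79b and the mast cell marker Tpsab1 were at or under background on every male olfactory array. The macrophage, neutrophil and lymphocyte lists moved beside the leukocyte genes Ctss, Ctsw and Cst7, while the mast cell list had a median change of 0.42. Ctsc, which activates granule proteases of leukocytes, did not pass. The squamous list moved beside Serpinb7, Serpinb3 and Spink5, though Serpinb11 and Serpinb12 of the same clade did not pass. The gland list moved beside the secreted Klk1b3. The part of cell mixture in these changes was not tested.

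**Figure D5:**
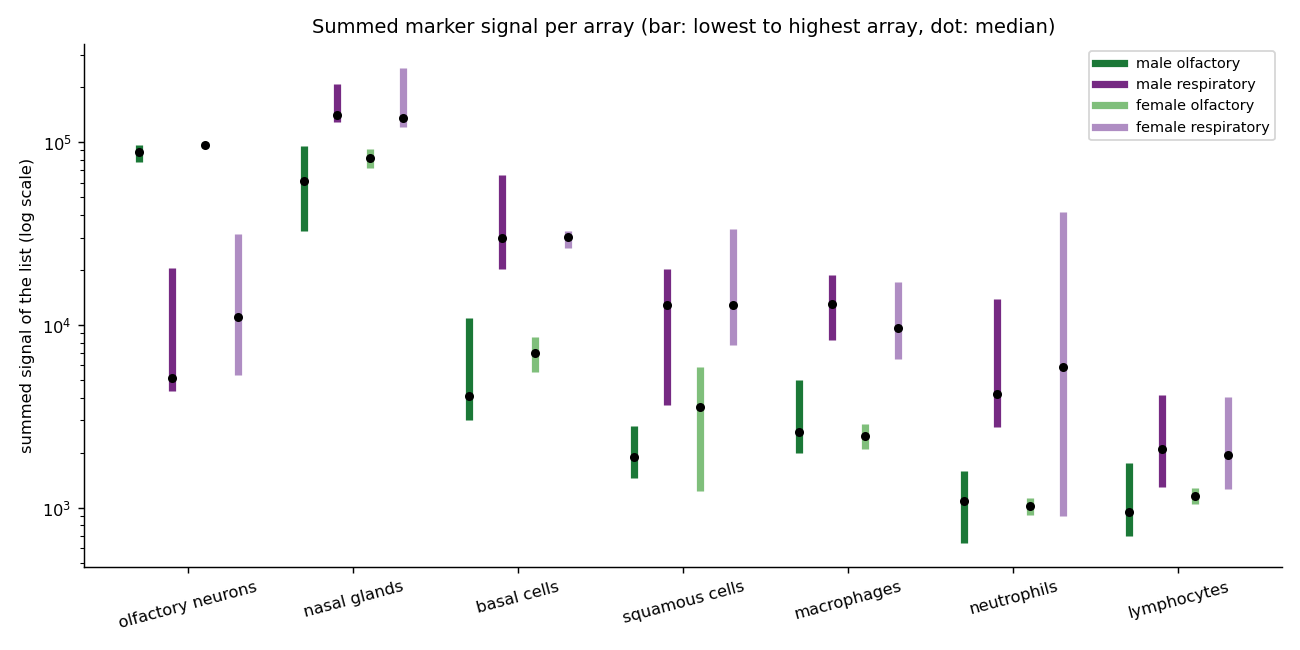
Summed signal (y axis, log scale) of 7 marker lists in each group, with a bar from the lowest to the highest array and a dot at the median. Olfactory neuron markers are higher and macrophage, basal and gland markers lower in male olfactory than in male respiratory arrays, without overlap, and neutrophil markers reach 41531 in female respiratory arrays.

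Genes that lie beside each other within the set did not all behave alike. In the run from Serpinb12 to Serpinb10, which holds 6 clade B serpins, 4 were lower in male olfactory epithelium, and in the run from Serpinb9b to Serpinb1a 3 of 4 were lower. In the run from Klk10 to Klk1b3 3 of 11 kallikreins were lower, with 0 higher. In the run from Serpina1 to Serpina3n, 1 of 9 clade A serpins, Serpina11, was higher. The runs of cystatins around Cst3 (5 genes), of trypsinogens (5) and of placental cathepsins (4) held none that passed. Of all named genes 17.8% were lower and 14.0% higher, and the runs were not tested as sets.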

How the data were processed

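Each deposited value is an intensity, the linear signal of a probe set, made with GCOS 1.0 per the submitters' processing notes. Its algorithm is not given in the sources used here. Total RNA was extracted with Trizol and purified on a Qiagen kit, per the labels' protocols. A scaling by the authors is visible, as the trimmed mean (2% off each end) was 499.98 on every array, and it was kept.

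Of 31099 probe sets 57 controls were left out. Names came from the platform annotation, with 20826 probe sets naming 1 gene and 436 naming several, which named none here. Names updated by Entrez identifier were used only for list genes not found under the annotated name. The update changed no member's symbol. Values were used as log2(signal + 16). Using limma 3.58.1 (R 4.3.3), a model was fitted with 4 group means over all 20 arrays with intensity-dependent empirical Bayes variances. Adjusted p-values are limma's two-sided ones after Benjamini-Hochberg over 31042 probe sets, a call is an adjusted p under 0.05, and SE comes from the same fit. Changes are olfactory minus respiratory on the log2(signal + 16) scale, which understates changes of dim genes, unless stated. Each array's background was taken from its 27 bacterial controls, at their 95th percentile. Where a group was at or under it on every array, each of its arrays was raised to its own background. The bound is the fold between the other group's mean of log2(signal + 16) and the mean of these raised values. The script recovered known changes on simulated data.

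Samples with the same sex and number carry the same individual in their labels and were taken as 1 rat. Deviations from group means correlated by -0.184 to 0.246 between the tissues of a rat (consensus 0.0386), so the pairing rests on the labels. Otherwise arrays were taken as separate rats, and no 2 arrays held identical values.

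The members and all lists were chosen with earlier results of these data known. Named were the 15 called genes per direction with the largest change in males, in each family the gene with the highest mean signal and the called gene with the largest change, and the 3 called genes with the largest change in each partner list. Further genes were named after their values were seen. Alternatives were other pseudocounts, a dim filter, quantile normalization, animal blocks, RNA integrity and age terms, subsets of arrays, no intensity trend, the mean of all probe sets, and each array left out.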

Additional observations from a re-analysis of the deposited data

Results flagged for a closer look

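Within groups of 6 arrays, 9 of 81 tested sets of values of the named genes held an array whose gap to the next exceeded Dixon's 95% limit, where about 1 in 20 is flagged by chance. Values are log2(signal + 16). Cst3 was 14.74 on male respiratory 7 (the others 13.55 to 13.95) and 15.21 on female respiratory 8 (13.31 to 13.70). On female respiratory 8 Serpinb1a was also high, at 14.92 (12.73 to 13.43), and Tmprss2 low, at 9.708 (11.07 to 11.45). Ctsf was 10.05 on male respiratory 7 (9.21 to 9.53). These are the arrays that stand apart on the second principal component, and the cause of these values was not tested. In the fit without both arrays the female change of Cst3 passed (0.77, SE 0.26, limma adjusted p 0.0313). With them it was 0.49 (SE 0.41, adjusted p 0.457).

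Klkb1 was 7.059 on male respiratory 1 (the others 4.20 to 5.14). Prss23 was 10.65 on male olfactory 7 (9.56 to 9.93). Serpine2 was 13.01 on male olfactory 10, the one array below the other 5 (13.57 to 13.71). Serpinb2 was 4.838 on male olfactory 1 (4.12 to 4.24), all at or under background.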

How the results depend on the processing

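Of the 37 male calls 12 held under every alternative, 26 under all but the RNA integrity covariate and 33 with each array left out. Under every alternative 3 of the 22 female calls held, those of Klk1b3, Prss23 and Serpinb6b. With the covariate 15 genes passed in males, 2 higher and 13 lower, and 3 in females, 0 higher and 3 lower. Its median SE was 1.84 times the SE without it over all arrays, and of the 23 lost male calls 11 kept a change of at least 0.8 times that without the covariate and 12 had a smaller one. The cause was not tested, and within each sex the integrity numbers of the tissues do not overlap, so the covariate can hardly be separated from tissue there. With the animal as a fixed replicate block 34 genes passed in males (5 higher, 29 lower), among them 32 of the 37 called. In females 18 passed (3 higher, 15 lower), among them 16 of the 22 called. With the random replicate block 37 and 23 passed. Of the genes called above, the blocks ended no call other than those given beside the results. Within rats aged 11 weeks 33 genes passed in males, 5 of them higher, and 29 of the 37 male calls held. Leaving out single arrays gave 35 to 39 male calls (6 to 8 higher, 28 to 31 lower) and 7 to 24 female calls (2 to 7 higher, 5 to 17 lower), with 7 (2 higher, 5 lower) without female olfactory 6. Other settings gave 36 to 41 calls in males and 19 to 24 in females, and no called change of a named gene reversed. Uncalled in the fit over all 20 arrays, the changes of Cst3, of Serpina3n in females and of Tmprss2 in males changed sign under some settings. For Tmprss2 it was -0.09 with the mean of its probe sets, against 0.17. The sex contrasts and the difference of the tissue contrasts had 0 calls among the 102 genes under every alternative run. No female fit within 11 weeks was run, since no female olfactory sample has that age. Genes at background are limited by signal, not by the test.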
